A study of Homo sapiens with 6 samples.

Results

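Receptors for haematopoietic growth factors and interleukins were examined in RNA-seq of BLaER1-CTCF-mAID cells, a B cell leukaemia line that can be converted into induced macrophages (iMacs). The group comprised 10 genes, *CSF1R*, *FLT3*, *CSF2RA*, *CSF2RB*, *IL3RA*, *CSF3R*, *IL7R*, *IL6R*, *IL4R* and *IL10RA*, taken by symbol. They include receptors for the cytokines of the conversion medium and for those that act on B cell precursors, and other receptors besides. All 10 were among the 30017 genes of the count table, and all 10 were among the 14758 genes that passed the filter on low counts and were tested. *CSF2RA*, *CSF3R* and *IL10RA* passed that filter through their 96 h libraries alone. The cells carry an exogenous CEBPA, a myeloid transcription factor that is switched on with estradiol, and the conversion medium contains added IL-3 and CSF-1. In this subclone, a single line, a degron fused to CTCF has the protein degraded once the auxin indole-3-acetic acid (IAA) is added. The 6 libraries were 2 replicates each of untreated cells at 0 h, of cells after 96 h of conversion without IAA (96 h control) and of cells after 96 h of conversion with IAA added together with the conversion factors (96 h CTCF-depleted). All 3 groups carry the degron. Cells without the degron that received IAA were not analysed here, and whether a difference comes from IAA or from the loss of CTCF cannot be told. For the IAA-treated cells, the study's methods describe a change to fresh medium with conversion factors and IAA during the 96 h. Whether control cells had the same change is not stated, so that its part cannot be told apart either. Total counts were 9273470 and 12718780 at 0 h, 11695516 and 11267539 in 96 h control and 11001175 and 10911481 in 96 h CTCF-depleted libraries. *CTCF* and *CEBPA* transcripts passed the thresholds in no comparison, and since the degron acts on the protein, the *CTCF* transcript does not measure the depletion.

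Cytokine receptors set which signals a blood cell can receive. CSF1R and FLT3 are receptor tyrosine kinases for CSF-1 and FLT3 ligand, and the others belong to the cytokine receptor families that signal through JAK kinases and STAT factors, in most cases after a ligand-specific chain has joined a chain shared with other receptors. The IL-7 receptor is characteristic of lymphoid precursors, whereas the receptors for CSF-1, G-CSF, GM-CSF and IL-6 are characteristic of monocytes, macrophages and granulocytes.

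The labelled states were first compared with their marker genes. All 12 B cell and B precursor markers were lower in 96 h control than in 0 h libraries, compared to 22.9% of all genes tested, and all 10 monocyte and macrophage markers were higher, compared to 25.4% (edgeR's quasi-likelihood test, adjusted p below 0.01 and absolute log2 fold change above 0.6, thresholds that apply throughout). Of the macrophage markers, only *CD68* and *CTSS* had more than 8 counts in a 0 h library, and the other 8 could be tested only because they were high at 96 h, so that their calls follow in part from the filter. The B cell markers summed to 3480 and 3440 CPM (counts divided by the library size in units of 1e6, after TMM scaling) at 0 h, 443 and 448 CPM in 96 h control and 451 and 463 CPM in 96 h CTCF-depleted libraries. The macrophage markers summed to 23.2 and 21.2 CPM, 6320 and 6100 CPM, and 5480 and 5390 CPM in the same order, with *LYZ* the most abundant. Of the markers of other lineages, some were missing, some rose and some fell with conversion. The T and NK cell markers *CD3D* and *CD3G*, the erythroid markers *HBA1*, *HBB* and *ALAS2* and the fibroblast markers *COL3A1*, *DCN* and *LUM* had 0 counts in all 6 libraries. Summed neutrophil, eosinophil and mast cell markers went from 0.0 and 0.3 CPM at 0 h to 34.4 and 32.6 CPM in 96 h control. They stood at 36.1 and 33.8 CPM in 96 h CTCF-depleted libraries, with *CAMP* the most abundant. All 5 of them that could be tested were higher in control, compared to 25.4% of all genes tested. They could be tested only because of their counts at 96 h, so that these calls follow in part from the filter. T and NK cell markers summed to 38.6 and 38.1 CPM in 96 h control, against 2.58 and 2.93 CPM at 0 h, with *NKG7* (log2 fold change 3.68) and *CD2* (0 counts at 0 h, 40 and 38 in control) higher. Erythroid and megakaryocyte markers summed to 25.8 and 27.2 CPM, against 2.06 and 1.58 CPM, with *PPBP* (0 counts at 0 h, 171 and 211 in control) and *ITGA2B* (2.46) higher. *LAMP3*, a marker of mature dendritic cells, and *PECAM1*, an endothelial marker that monocytes share, carried most of the largest sums of their lists. Dendritic cell markers went from 111 and 110 CPM at 0 h to 9.0 and 9.35 CPM in 96 h control, with *LAMP3* (log2 fold change -7.69) and *CCR7* (-2.00) lower and *BATF3* (0.88) higher. Of the same list, *FCER1A* and *CLEC4C* were too low to be tested in edgeR and had 0 counts at 0 h. In control they had 9 and 21 and 4 and 9 counts, at least 10.4-fold and 4.51-fold higher against a floor of 3 counts. DESeq2 called 2 genes of the list higher and 1 lower. Fibroblast and endothelial markers went from 14.1 and 14.7 to 129 and 129 CPM, with *PECAM1* (5.32), *VWF* (ratio 12.7, exact 95% interval 5.15 to 40.5, counting error) and *CDH5* higher and *COL1A1* (-1.70) lower. *CD2*, *PPBP*, *VWF* and *CDH5* could be tested only because of their counts at 96 h, so that their calls also follow in part from the filter. The calls of *CCR7*, *BATF3* and *CDH5* were lost with DESeq2 and when some single libraries were left out. In bulk RNA such as this, fewer cells of a type and less RNA per cell cannot be told apart.

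Promoter windows are shown for 3 receptors whose transcripts rose during conversion and for *IL7R*, whose transcript fell. Windows of 300 bases, 250 before and 50 after an annotated start, were found in RefSeq (GRCh38.p14) for 9 of the 10 receptors, not for *CSF2RB*. They were searched on both strands for GAGGAAG, a PU.1-type motif, TTNNGCAA, a C/EBP-type motif, and TGTTTAC, a FOXO-type motif. Capitals mark GAGGAAG or its reverse complement, and each sequence is given 5′ to 3′ on the strand of its gene. The *CSF1R* window lies at chr5:150086505-150086804 on the minus strand, wholly inside the gene as GENCODE annotates it, with 103 of its bases in exons. The *CSF2RA* window at chrX:1268564-1268863 (plus strand) has 64 bases in the annotated gene, all of them exonic, and the *IL6R* window at chr1:154405093-154405392 (plus strand) has 200. The *IL7R* window at chr5:35856641-35856940 (plus strand) lies inside the annotated gene, with 99 bases in exons.
CSF1R: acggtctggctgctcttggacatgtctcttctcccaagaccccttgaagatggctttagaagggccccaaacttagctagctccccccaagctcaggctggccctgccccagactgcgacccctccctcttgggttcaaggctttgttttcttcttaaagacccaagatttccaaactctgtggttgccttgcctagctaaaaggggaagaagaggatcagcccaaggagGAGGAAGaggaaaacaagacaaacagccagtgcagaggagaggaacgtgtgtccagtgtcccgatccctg
CSF2RA: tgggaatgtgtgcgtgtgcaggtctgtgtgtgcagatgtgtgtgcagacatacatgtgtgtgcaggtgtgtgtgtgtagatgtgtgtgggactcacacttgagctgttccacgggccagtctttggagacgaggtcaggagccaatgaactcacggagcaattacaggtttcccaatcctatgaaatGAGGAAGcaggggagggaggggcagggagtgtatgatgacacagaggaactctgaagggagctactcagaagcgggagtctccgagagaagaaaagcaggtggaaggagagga
IL6R: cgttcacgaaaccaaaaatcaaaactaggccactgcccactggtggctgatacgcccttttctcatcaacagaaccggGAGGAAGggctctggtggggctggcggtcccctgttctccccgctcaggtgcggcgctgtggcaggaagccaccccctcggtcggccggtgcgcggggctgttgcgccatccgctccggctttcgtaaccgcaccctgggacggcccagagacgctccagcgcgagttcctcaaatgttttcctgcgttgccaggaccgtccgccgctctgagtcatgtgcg
IL7R: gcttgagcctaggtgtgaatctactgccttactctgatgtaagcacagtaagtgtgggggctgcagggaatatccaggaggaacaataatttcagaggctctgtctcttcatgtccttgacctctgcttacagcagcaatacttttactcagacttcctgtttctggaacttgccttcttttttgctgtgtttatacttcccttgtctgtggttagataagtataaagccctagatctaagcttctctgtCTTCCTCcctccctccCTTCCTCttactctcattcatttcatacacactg
The *CSF1R* motif begins 20 bases before the annotated start, at position -20. In the *CSF2RA* and *IL6R* windows it begins at -63 and -172. The *IL7R* window holds the reverse complement at 2 places, from positions 1 and 17 after the start. GAGGAAG in either orientation was present in 6 of the 11 distinct windows of the receptors and in 13.6% of all 35093 windows in the table. Every window shown is among the 6. The windows of *IL3RA* and *IL4R*, which also rose, held none, and neither did that of *FLT3* or the second, upstream window of *CSF1R*. Among the 6 are the *IL10RA* window, which lies inside the annotated gene without exonic bases, and 1 of 2 windows of *CSF3R*, and which starts these cells use was not determined. TTNNGCAA was present in 3 of the 11 windows (*IL3RA*, *CSF3R* and *IL10RA*) and in 10.5% of all windows, and TGTTTAC in 1 (*CSF3R*) and in 3.42% of all windows. The motif therefore stood in windows of genes that rose and of a gene that fell, and binding was not measured here.

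During conversion, the receptor transcripts changed from a profile led by *IL7R* to one led, per kilobase of exon, by *IL6R*, *CSF1R* and *IL3RA*. In 96 h control against 0 h libraries, 7 of the 10 receptors were higher (*CSF1R*, *CSF2RA*, *IL3RA*, *CSF3R*, *IL6R*, *IL4R* and *IL10RA*), compared to 25.4% of all genes tested, and 1 was lower (*IL7R*), compared to 22.9%. *FLT3* and *CSF2RB* did not pass both thresholds. The median log2 fold change of the 10 receptors was 3.97, and that of all genes tested was 0.02. *CSF2RA*, *CSF3R* and *IL10RA* could be tested only because they were high at 96 h. With at least 10 counts required in every library, 4 of 7 receptors were higher, compared to 22.8% of all genes that passed this filter. With 2 libraries in each group, permuting the labels of a gene would yield no p smaller than 0.333 (two-sided), and edgeR's adjusted p-values draw on a spread estimated from all genes together.

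**Figure D1:**
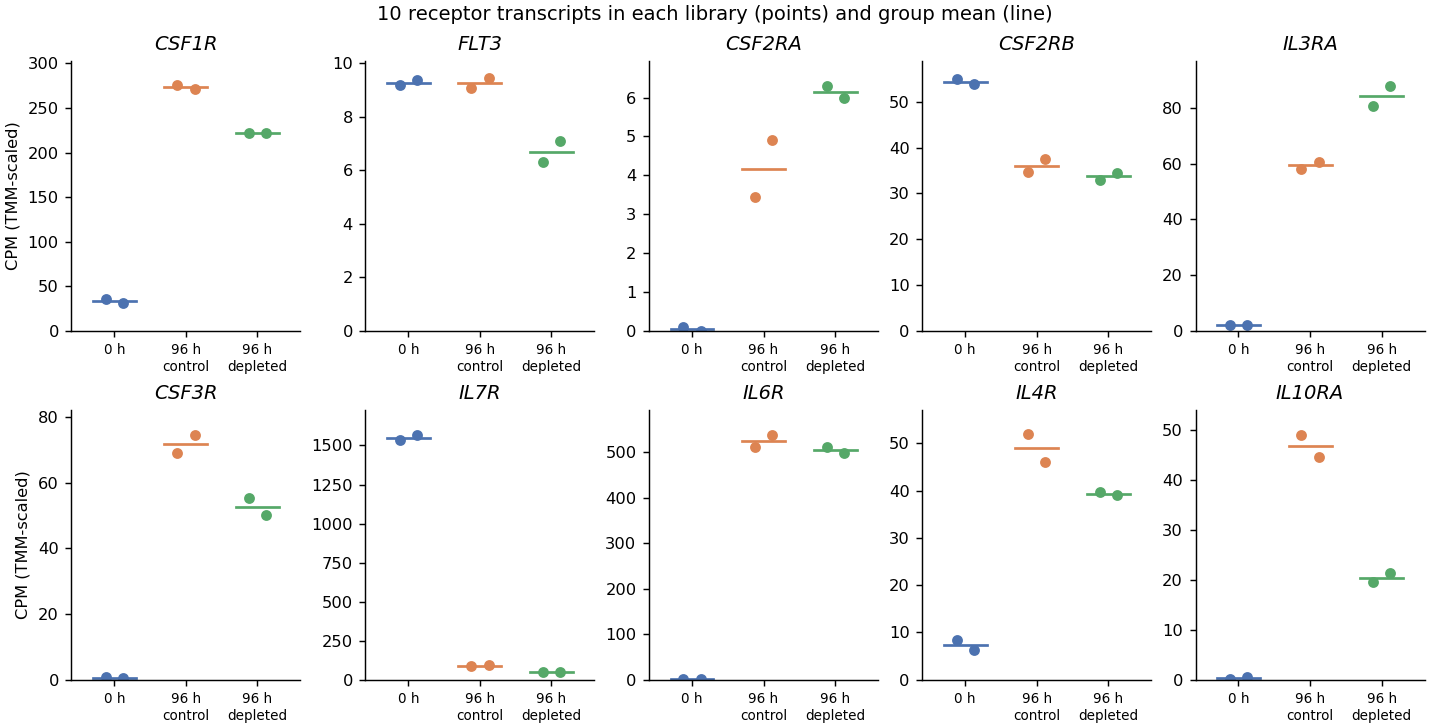
Level of each of the 10 receptor transcripts (y axis, TMM-scaled CPM, each panel on its own linear scale from 0) in the 6 libraries grouped on the x axis, with points for libraries and a line for the group mean. *IL7R* falls from 1551 CPM at 0 h to 91.2 CPM in 96 h control libraries, whereas *IL6R* rises from 1.575 to 525 CPM.

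Of the receptor tyrosine kinases, *CSF1R* rose and *FLT3* stayed level. *CSF1R*, the receptor for CSF-1 and IL-34 on macrophages, had 340 and 419 counts at 0 h and 3127 and 2930 counts in 96 h control libraries. Both 96 h libraries were thus far above both 0 h libraries, although the gene was already well detected at 0 h. The means were 33.25 ± 2.58 and 273.7 ± 3.28 CPM (SD, n = 2 each; log2 fold change 3.05, standard error 0.06, edgeR adjusted p = 5.67e-45). Gene-level counts do not separate the starts of *CSF1R*, which has a second RefSeq start further upstream. *FLT3*, the receptor of early progenitors, had 89 and 125 counts at 0 h and 103 and 102 counts in 96 h control libraries, and the groups overlapped. Its means were 9.28 and 9.27 CPM, and the 95% interval of the log2 fold change ran from -0.34 to 0.34, a range that lies inside the fold threshold.

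The ligand-binding chains of the IL-3 and GM-CSF receptors rose, while their shared chain did not pass both thresholds. *IL3RA*, the chain that binds IL-3, had 20 and 26 counts at 0 h and 659 and 653 counts in 96 h control libraries. This was a rise from 2.01 ± 0.0799 to 59.3 ± 1.63 CPM (SD, n = 2 each), 29.5-fold, at a log2 fold change of 4.88 ± 0.14 (standard error; edgeR adjusted p = 5.93e-38). *CSF2RA*, the chain that binds GM-CSF, had 1 and 0 counts at 0 h and 39 and 53 counts in 96 h control libraries. It was therefore at the limit of detection before conversion and low afterwards. The ratio of summed counts, scaled by library size, was 95.7 with an exact 95% interval of 16.8 to 3820, which covers counting error only. *CSF2RB*, the beta chain that both receptors share, had 533 and 717 counts at 0 h and 393 and 404 counts in 96 h control libraries. The groups did not overlap, at 54.4 ± 0.85 and 36.05 ± 1.93 CPM (SD, n = 2 each), but the log2 fold change of -0.59 ± 0.08 (standard error; edgeR adjusted p = 2.53e-09) was just short of the threshold. It lay past the threshold with DESeq2 (-0.61), and the adjusted p ranged from 9.55e-13 to 1.12e-05 over the alternatives. *IL3RA* and *CSF2RA* lie in the pseudoautosomal region, which has identical copies on the X and Y chromosomes, and reads that map to both copies may be left out of or split between counts. Their levels are uncertain for that reason, whereas comparisons between libraries share the same counting.

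*CSF3R*, the G-CSF receptor of granulocytes and monocytes, had 7 and 8 counts at 0 h and 783 and 804 counts in 96 h control libraries, a rise from 0.661 ± 0.0863 to 71.8 ± 3.78 CPM (SD, n = 2 each), at a log2 fold change of 6.76 ± 0.16 (standard error; edgeR adjusted p = 3.91e-41). The order of the largest increases is not fixed, since *CSF2RA*, *CSF3R* and *IL10RA* had so few counts at 0 h. Without the first 0 h library the log2 fold changes were 8.56 for *CSF2RA*, 8.43 for *IL6R*, 6.87 for *CSF3R* and 6.66 for *IL10RA*, and without the second they were 5.14, 8.26, 6.57 and 8.63.

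Of the remaining receptors, *IL6R*, *IL10RA* and *IL4R* rose and *IL7R* fell. *IL7R*, the ligand-binding chain of the receptors for IL-7 and TSLP, had 14876 and 20911 counts at 0 h and 987 and 1028 counts in 96 h control libraries. It was the only receptor of the 10 to pass the thresholds downwards, from 1551 ± 24.0 to 91.2 ± 5.72 CPM (SD, n = 2 each). The 17.0-fold decrease (log2 fold change -4.09, standard error 0.05, edgeR adjusted p = 2.32e-54) left the transcript well above detection at 96 h. *IL6R*, the chain that binds IL-6, had 16 and 20 counts at 0 h and 5795 and 5809 counts in 96 h control libraries. The increase from 1.575 ± 0.106 to 525 ± 18.7 CPM (SD, n = 2 each) was 333-fold (log2 fold change 8.38, standard error 0.10, edgeR adjusted p = 2.84e-57). *IL10RA*, which binds IL-10 and transmits its signal through STAT3, had 1 and 6 counts at 0 h and 554 and 480 counts in 96 h control libraries. With so few counts at 0 h, the ratio of summed counts of 154 has an exact 95% interval of 74.3 to 383 for counting error. *IL4R*, a chain of the receptors for IL-4 and IL-13, had 82 and 83 counts at 0 h and 589 and 498 counts in 96 h control libraries. Its mean went from 7.34 ± 1.58 up to 49.05 ± 4.15 CPM (SD, n = 2 each), at a log2 fold change of 2.77 ± 0.12 (standard error; edgeR adjusted p = 1.62e-29). A long non-coding RNA on the opposite strand overlaps 329 exonic bases of *IL4R* in the annotation, and the strand setting of the counting is not given in the sources used here.

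**Figure D2:**
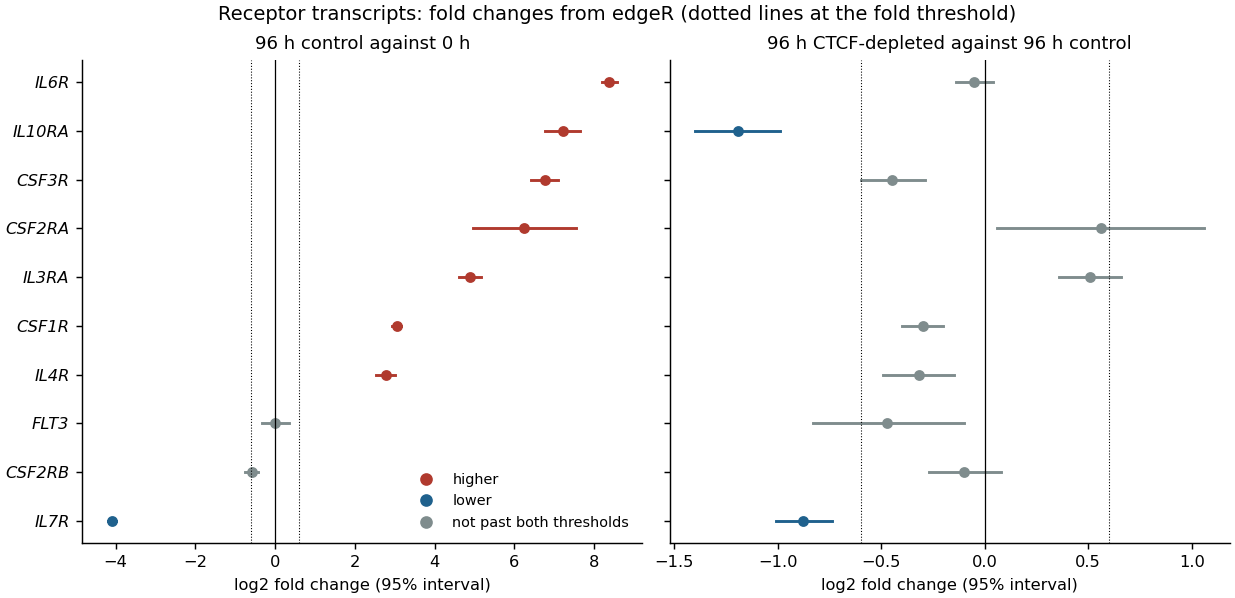
Log2 fold change (x axis) of each receptor transcript (y axis) in 96 h control against 0 h libraries (left) and in 96 h CTCF-depleted against 96 h control libraries (right), with points for edgeR estimates, bars for 95% intervals and dotted lines at the fold threshold of 0.6. The scales differ: changes span -4.09 to 8.38 on the left and -1.19 to 0.56 on the right, where *IL10RA* and *IL7R* alone pass both thresholds.

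The differences with IAA were smaller than those of conversion for all receptors that had passed the thresholds during conversion. In 96 h CTCF-depleted against 96 h control libraries, 2 of the 10 receptors were lower (*IL7R* and *IL10RA*), compared to 7.03% of all genes tested, and 0 were higher, compared to 5.41%. At an unadjusted p below 0.05 in edgeR, 6 were lower and 2 were higher, compared to 26.2% and 19.4% of all genes tested. DESeq2 called 2 lower and 0 higher, compared to 4.99% and 3.87% of the genes it tested. The median log2 fold change of the 10 was -0.31, compared to -0.03 over all genes tested, with 8 below 0 and 2 above.

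*IL10RA* showed the largest difference between the 96 h groups. It had 211 and 231 counts in the CTCF-depleted libraries, against 554 and 480 in the control libraries, and the groups did not overlap. The means fell from 46.7 ± 3.14 CPM without to 20.4 ± 1.23 CPM with IAA (SD, n = 2 each; log2 fold change -1.19, standard error 0.10, edgeR adjusted p = 1.67e-14). *IL7R* had 517 and 557 counts in the CTCF-depleted libraries, against 987 and 1028 in control, and so went further in the direction that it had taken during conversion. Its means were 91.2 ± 5.72 and 49.6 ± 2.43 CPM (SD, n = 2 each; log2 fold change -0.88, standard error 0.07, edgeR adjusted p = 8.58e-17). The 2 receptors that fell therefore came from opposite sides of the conversion: *IL10RA* had risen by 96 h, and *IL7R* had fallen.

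Another 4 receptors had an adjusted p below 0.01 without reaching the fold threshold. *CSF1R* had 2393 and 2406 counts in the CTCF-depleted libraries, at 221.6 ± 0.048 CPM against 273.7 ± 3.28 CPM in control (SD, n = 2 each), or a log2 fold change of -0.30 ± 0.05 (standard error; edgeR adjusted p = 9.96e-07). *CSF3R* had 597 and 544 counts, at a log2 fold change of -0.45 ± 0.08 (standard error; edgeR adjusted p = 2.19e-06), and *IL4R* had 429 and 423 counts, with -0.32 (standard error 0.09, edgeR adjusted p = 0.00224). These were on the lower side in both CTCF-depleted libraries, but only the first 2 kept an adjusted p below 0.01 with DESeq2, and that of *IL4R* ranged from 0.00183 to 0.195 over the alternatives. *IL3RA* stood on the other side. Its counts were 871 and 954 in the CTCF-depleted libraries, against 659 and 653 in control, and its log2 fold change was 0.51 (standard error 0.07, edgeR adjusted p = 8.9e-08). Without the first CTCF-depleted library it was 0.61, past the fold threshold.

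For the remaining 4 receptors the adjusted p was above 0.01. *CSF2RA* had 68 and 65 counts in the CTCF-depleted libraries, both above the 39 and 53 counts in control, with a log2 fold change of 0.56 and a 95% interval from 0.06 to 1.06 (edgeR adjusted p = 0.0683). *FLT3* had 68 and 77 counts, both below the control libraries, with a log2 fold change of -0.47 and an interval from -0.83 to -0.10 (edgeR adjusted p = 0.035). Both intervals reach past the fold threshold, so that neither gene can be placed on a side of it. *CSF2RB* had 355 and 375 counts, with a log2 fold change of -0.10 and an interval from -0.27 to 0.08 (edgeR adjusted p = 0.409). *IL6R* had 5537 and 5408 counts, its groups overlapped, and the interval from -0.14 to 0.04 was the narrowest of the 10 (log2 fold change -0.05, edgeR adjusted p = 0.363). For *CSF2RB* and *IL6R*, the intervals therefore lie inside the fold threshold.

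Relative to 0 h, the CTCF-depleted libraries had 7 receptors higher, compared to 27.2% of all genes tested, and 2 lower, compared to 25.2%. The receptors that were higher were those that were higher in control cells, and *CSF2RB* joined *IL7R* among the lower ones, at a log2 fold change of -0.69 ± 0.08 (standard error; edgeR adjusted p = 4.57e-11). This comparison and that of the control cells use the same 0 h libraries, so that they are not independent. Set side by side, the log2 fold changes relative to 0 h were 7.21 in control and 6.02 in CTCF-depleted cells for *IL10RA*, 6.76 and 6.31 for *CSF3R*, and 3.05 and 2.75 for *CSF1R*. The values of *IL10RA* moved to between 6.66 and 8.63 in control and between 5.50 and 7.47 in CTCF-depleted cells when 1 library was left out. The control and CTCF-depleted values were 4.88 and 5.39 for *IL3RA*, 8.38 and 8.33 for *IL6R*, and 2.77 and 2.45 for *IL4R*. For *IL7R* they were -4.09 and -4.97. No receptor that passed the thresholds in both comparisons differed in direction between them.

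Levels of different receptors were compared per kilobase of exon. At 0 h, *IL7R* stood at 258 ± 3.98 CPM per kb (SD, n = 2) and made up 92.0% of the summed level of the 10 receptors. *CSF2RB* followed at 10.9 and *CSF1R* at 6.45 CPM per kb, and the ranges of these 3 did not overlap. In 96 h control cells, *IL6R* was highest at 75.0 ± 2.68 CPM per kb, before *CSF1R* at 53.1 ± 0.637 and *IL3RA* at 34.7 ± 0.956 (SD, n = 2 each), and *IL7R* came next at 15.1 ± 0.95. These 4 neighbours in the order differed beyond the range of their replicates, whereas the levels of *CSF2RB* (7.22) and *CSF3R* (6.78) overlapped. In CTCF-depleted cells, *IL3RA* at 49.3 ± 2.99 CPM per kb stood above *CSF1R* at 43.0 ± 0.00932 (SD, n = 2 each). That order depends on the length used: with the canonical transcript in place of all exons, a choice made after seeing the data, *CSF1R* was at 58.0 and *IL3RA* at 54.7. The rank of *CSF3R* in control cells likewise moved from 7 to 4, since its annotated exons add up to 10594 bases and its canonical transcript has 3008. The summed level of the 10 receptors was 280 CPM per kb at 0 h, 209 in control and 197 in CTCF-depleted cells. The levels of *IL3RA* and *CSF2RA*, and so their places in the order, are uncertain because reads from their X and Y copies may be left out or split.

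**Figure D3:**
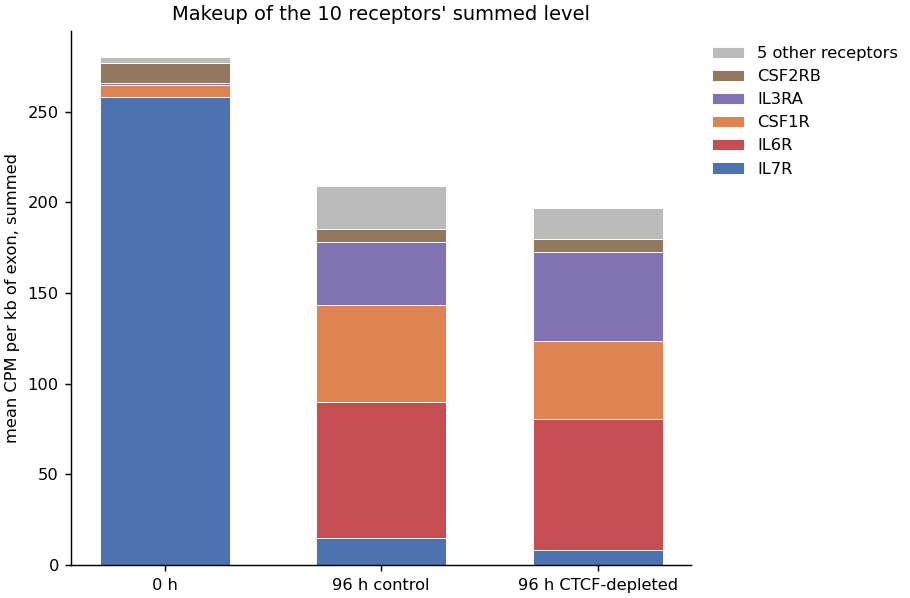
Mean level per kilobase of exon (y axis, CPM per kb, linear from 0) of the receptors, stacked to their sum, in each group (x axis), with 5 receptors drawn singly and the other 5 as 1 grey segment. *IL7R* takes up 92.0% of the 0 h bar, and *IL6R*, *CSF1R* and *IL3RA* take up most of both 96 h bars.

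Several of these receptors need a second chain, and the balance of the chains changed during conversion. For the IL-3 receptor, the shared *CSF2RB* was 9.29 times the level of *IL3RA* per kilobase at 0 h. In 96 h control cells *IL3RA* was 4.80 times the level of *CSF2RB*, and in CTCF-depleted cells it was 7.29 times. For the IL-6 receptor, *IL6ST*, the signalling chain gp130, was 18.6 times the level of *IL6R* at 0 h, and *IL6R* was 4.48 times that of *IL6ST* in control and 2.82 times in CTCF-depleted cells. The IL-7 receptor went the other way. *IL7R* was 29.7 times the level of the common gamma chain gene *IL2RG* at 0 h, and *IL2RG* was 1.16 times that of *IL7R* in control and 1.81 times in CTCF-depleted cells. For the IL-10 receptor, *IL10RB* was above *IL10RA* in every library, by 2.21 times in control and 6.11 times in CTCF-depleted cells. For the GM-CSF receptor, *CSF2RB* was 7.08 times the level of *CSF2RA* in control and 4.50 times in CTCF-depleted cells, and with canonical transcript lengths 3.23 and 2.05 times. With those lengths, no pair changed its order in any group. The ratios with *IL3RA* and *CSF2RA* carry the uncertainty in level of these pseudoautosomal genes. All are ratios of transcript levels and not of receptor chains at the cell surface, which were not measured here.

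**Figure D4:**
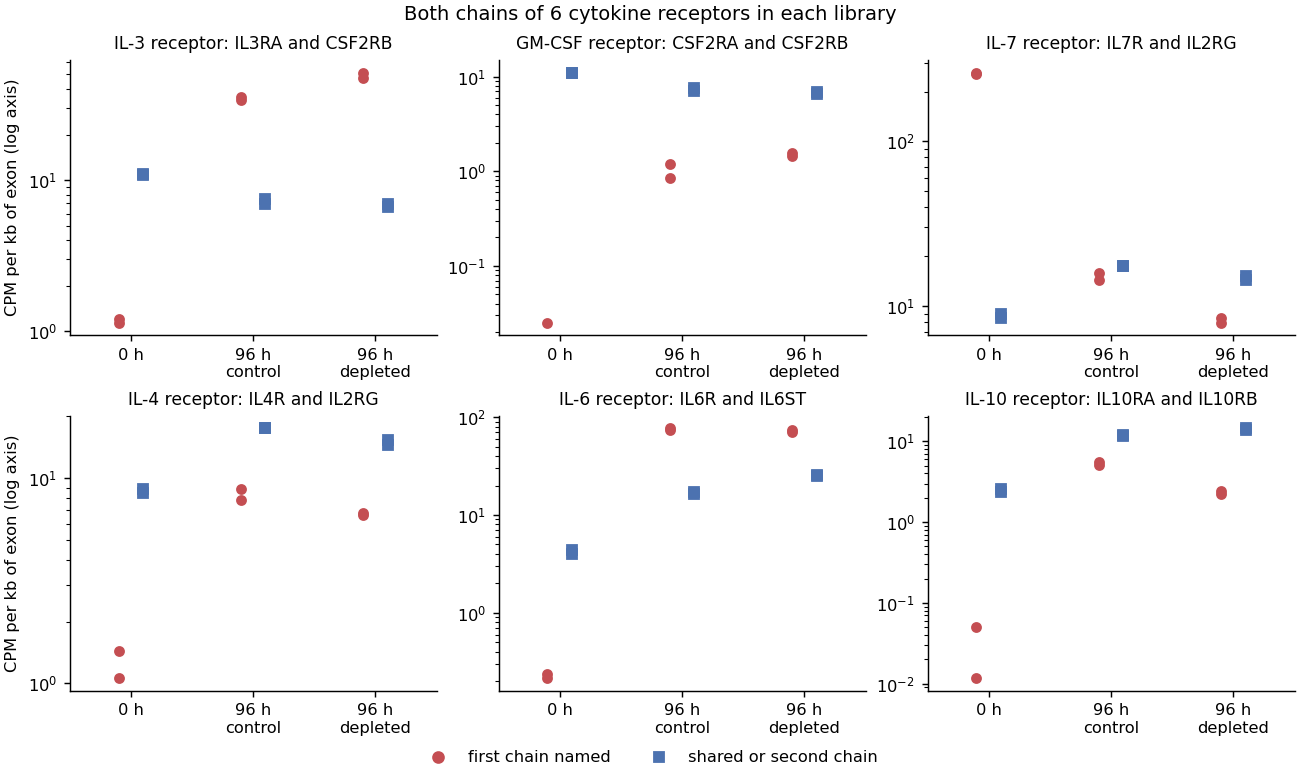
Level per kilobase of exon (y axis, CPM per kb, log axis) of the ligand-specific chain (circles) and of the shared or second chain (squares) of 6 receptors in the 6 libraries, by group (x axis). The circles lie below the squares at 0 h and above them at 96 h for the IL-3 and IL-6 receptors and do the opposite for the IL-7 receptor; the 0 h library with 0 *CSF2RA* counts is not drawn.

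Of the 6 genes for partner chains, 5 could be tested, and all 5 were higher in 96 h control than in 0 h libraries, compared to 25.4% of all genes tested. *IL2RG* had a log2 fold change of 1.02, *IL6ST* of 2.01, *IL10RB* of 2.24, *CRLF2* of 2.70 and *IL13RA1* of 2.94. *IL5RA* had at most 1 count in any library. In the CTCF-depleted libraries, *IL6ST* rose further, from 2318 and 2151 counts to 3377 and 3315 counts, or a log2 fold change of 0.61 ± 0.05 (standard error; edgeR adjusted p = 6.44e-16) that was close to the threshold. The log2 fold changes of the other partner chains lay between -0.24 (*IL2RG*) and 0.40 (*CRLF2*), and 0 were lower (edgeR; 1 at an unadjusted p below 0.05, 0 by DESeq2), compared to 5.41% higher and 7.03% lower over all genes tested. For IL-10, the ligand-binding chain was thus lower in CTCF-depleted cells, and *IL10RB* had a log2 fold change of 0.27 ± 0.07 (standard error; edgeR adjusted p = 0.00101).

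The ligands of these receptors were scarce. Of 13 ligand genes, 3 could be tested, and *CSF2*, *CSF3*, *IL4* and *IL5* had 0 counts in all 6 libraries. *CSF1* had 7 and 7 counts at 0 h and 22 and 34 counts in 96 h control libraries and was higher (log2 fold change 2.04), but without the second control library its adjusted p was 0.0124 in edgeR. *IL10* had 0 counts at 0 h and 10 and 6 counts in control, at least 5.55-fold higher against a floor of 3 counts over both 0 h libraries. *CSF1* and *IL10* could be tested only because of their counts at 96 h, so that these calls follow in part from the filter. After CTCF depletion *IL10* had 24 and 18 counts, with a log2 fold change of 1.41 against control that did not pass (standard error 0.47, edgeR adjusted p = 0.014). *IL6* had 2 and 4 counts in control libraries, against 15 and 9 after CTCF depletion. The ratio of 4.09 had an exact 95% interval of 1.63 to 12.2 for counting error. *FLT3LG* had between 15 and 31 counts in each library and passed in no comparison. *IL3*, *IL7* and *TSLP* had at most 2 counts in any library. *IL34* had 0 and 4 counts at 0 h, 5 and 2 in control and 1 and 1 after CTCF depletion. For *IL13* the counts were 1 and 1, 0 and 0, and 3 and 1 in the same order.

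Signalling genes downstream of the receptors were compared list by list. Over all genes tested, 25.4% were higher and 22.9% were lower during conversion, and 5.41% were higher and 7.03% were lower after CTCF depletion. Of 10 tested JAK and STAT genes, 8 were higher and 0 were lower in 96 h control than in 0 h libraries (edgeR; likewise 0 at an unadjusted p below 0.05 and 0 by DESeq2), with *JAK2* the furthest at 3.67. *STAT4*, too low to be tested and chosen after its values were seen, had 6 and 14 counts at 0 h and 1 and 4 in control, a ratio of 0.26 (exact 95% interval 0.0763 to 0.714, counting error). After CTCF depletion, *JAK2* was the 1 gene of this list past the thresholds, from 272 to 471 CPM, at a log2 fold change of 0.79 ± 0.05 (standard error; edgeR adjusted p = 4.92e-21). JAK2 is the kinase of the IL-3 and GM-CSF receptors. Among 20 inhibitors of cytokine signalling, 8 were higher during conversion, 2 were lower and 10 did not pass. Those higher included *CISH* (2.38), *INPP5D* (1.64) and *PTPRC*, which went from 3 and 0 to 852 and 859 counts, a ratio of 594 (exact 95% interval 203 to 2880, counting error). *SOCS3*, whose product binds gp130, had 0 and 2 counts at 0 h against 246 and 196 in control, a ratio of 230 (exact 95% interval 63.3 to 1900, counting error). After CTCF depletion, *SOCS1* was higher (0.68) and *CBLB* lower (-0.74). The call of *SOCS1* was lost with DESeq2 (adjusted p = 0.126) and whenever 1 of the 4 libraries was left out. Of 22 adaptors and kinases below the receptors, 12 were higher and 1 was lower during conversion. Those higher included *PIK3R5* (3.84), a regulatory subunit of PI3K gamma, and 2 genes with few counts at 0 h. The adaptor *TYROBP* had 1 and 0 counts at 0 h and a ratio of 1210 (exact 95% interval 216 to 47600, counting error), and the kinase *FGR* had 4 and 4 and a ratio of 441 (224 to 1020). *GAB2*, an adaptor of receptor tyrosine kinases and cytokine receptors, rose from 88.4 to 326 CPM and was lower again after CTCF depletion at 166 CPM, or a log2 fold change of -0.97 ± 0.05 (standard error; edgeR adjusted p = 4.69e-24). All 4 genes for the shedding of receptors from the membrane (*ADAM10*, *ADAM17*, *RHBDF1* and *RHBDF2*) were higher during conversion. *RHBDF1* had 1 and 2 counts at 0 h and 78 and 101 in control, a ratio of 62.1 (exact 95% interval 20.9 to 304, counting error). Like *SOCS3*, *PTPRC*, *TYROBP* and *FGR*, it could be tested only because it was high at 96 h, so that these calls follow in part from the filter. After CTCF depletion, *RHBDF1* was higher (0.78), a call that was lost with DESeq2 (adjusted p = 0.0419) and when either the first control or the second CTCF-depleted library was left out.

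Among 26 other cytokine receptors, 19 could be tested, and their median log2 fold change during conversion was 0.76. Of these, 11 were higher, compared to 25.4% of all genes tested, and 3 were lower (*KIT*, *IL12RB2* and *PDGFRB*), compared to 22.9%. DESeq2 called 9 higher and 3 lower, compared to 20.3% and 18% of the genes it tested. The conversion calls of *LIFR* and *LEPR* were lost with DESeq2 and when some single libraries were left out. *IL2RA*, among the higher ones, had 0 counts at 0 h and 37 and 40 counts in control. It could be tested only because of its counts at 96 h, and *KIT* and *IL12RB2* only because of theirs at 0 h. These calls thus follow in part from the filter. After CTCF depletion, *LIFR* was higher (0.80), compared to 5.41% of all genes tested, and *EPOR* lower (-0.99), compared to 7.03%, and both calls were lost with DESeq2 (adjusted p = 0.0759 and 0.0401) and when the first control library or 1 of the CTCF-depleted libraries was left out. *PDGFRB* is the direct neighbour of *CSF1R*, with 0.467 kb between the annotated ends of the genes. It had 2326 and 3265 counts at 0 h and 318 and 284 counts in control, or a log2 fold change of -3.16 ± 0.07 (standard error; edgeR adjusted p = 8.53e-43), while *CSF1R* rose. *HMGXB3*, 0.149 kb from *CSF1R* on its other side, had a log2 fold change of 0.16 and was not called. Neighbours were looked up for all 10 receptors, as the nearest tested protein-coding gene on each side, and *HMGXB3* and the neighbours named next were chosen after their values were seen. *FXYD6*, next to *IL10RA* at 109 kb, had 0 CPM at 0 h and 3.97 and 1.66 CPM in control and CTCF-depleted cells, and it was lower after depletion (log2 fold change -1.25, standard error 0.34, edgeR adjusted p = 0.00203). *SCN4B*, on the other side of *IL10RA* at 130 kb, had 0.32 and 1.20 CPM, a log2 fold change of 1.89 that did not pass (standard error 0.63, edgeR adjusted p = 0.0138). *CAPSL*, next to *IL7R* at 24.7 kb, fell from 3.27 to 0.0463 CPM during conversion.

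The genes for the IL-3 and GM-CSF binding chains lie next to each other in the pseudoautosomal region, together with the TSLP receptor gene *CRLF2*. The gaps are 26.2 kb between *CSF2RA* and *IL3RA* and 56.1 kb between *CRLF2* and *CSF2RA*. All 3 were higher during conversion, with log2 fold changes of 2.70 (*CRLF2*), 6.25 (*CSF2RA*, from 1 count, and 5.14 to 8.56 with a library left out) and 4.88 (*IL3RA*). In CTCF-depleted against control libraries the 3 had log2 fold changes of 0.40 (edgeR adjusted p = 0.0826), 0.56 and 0.51, and none passed both thresholds. The next gene, *SLC25A6*, 3.46 kb beyond *IL3RA*, had 0.08 (standard error 0.05, edgeR adjusted p = 0.188). *PLCXD1* and the non-coding *LINC00685*, which lie far away on the other side, had 0.36 (edgeR adjusted p = 0.000176) and 0.51 (edgeR adjusted p = 0.00682), and *P2RY8*, whose start lies 126 kb from that of *IL3RA*, had -0.30 (standard error 0.05, edgeR adjusted p = 3.48e-06). Over the 16 tested genes of the region, the median log2 fold change after CTCF depletion was 0.09, with 12 above 0 and 4 below, and 0 passed the thresholds in either direction, compared to 5.41% higher and 7.03% lower over all genes tested, a number of genes too small to set the region apart. The region and these genes were singled out after the values of *IL3RA* and *CSF2RA* were seen.

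**Figure D5:**
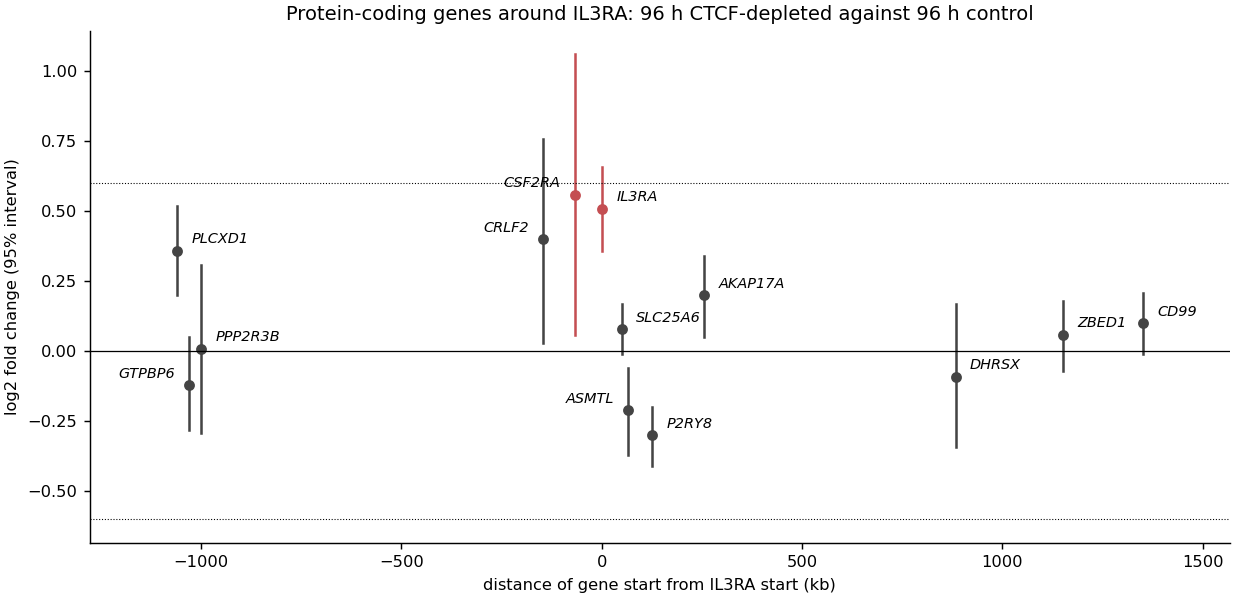
Log2 fold change in 96 h CTCF-depleted against 96 h control libraries (y axis, edgeR estimate with 95% interval) of the tested protein-coding genes of the pseudoautosomal region around *IL3RA*, by the distance of their starts from the start of *IL3RA* (x axis, kb), with the receptors of the group in red and dotted lines at the fold threshold. *CRLF2*, *CSF2RA* and *IL3RA* lie at 0.40 to 0.56, and the intervals of *SLC25A6* and *ASMTL* further on reach 0 or below.

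The tested genes with the most similar profiles over the 6 libraries were found for 3 receptors from the root mean square difference of centred log2 CPM values. For *CSF1R* they were *SPI1* (0.063), the gene for PU.1, *PNKD* (0.067) and *RNF166* (0.068). *SPI1* went from 43.0 to 319 CPM during conversion and stood at 267 CPM in CTCF-depleted cells, against 33.25, 273.7 and 221.6 CPM for *CSF1R*. For *IL7R* the nearest genes were *ANK2* (0.12), *AKAP12* (0.14) and *DMD* (0.15), and for *IL10RA* they were *TREM1* (0.18), *DES* (0.21) and *PGBD5* (0.24). The 3 genes near *IL10RA* had log2 fold changes of -0.95, -1.07 and -1.14 after CTCF depletion. With 3 groups of 2 libraries, many genes can share such a profile.

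The markers of the converted state did not move in 1 direction after CTCF depletion. Of the 10 macrophage markers, *ITGAM* was higher (1.15), *CYBB* (-0.93), *MRC1* (-1.33) and *MSR1* (-0.61) were lower, and 6 did not pass. Over all genes tested, 5.41% were higher and 7.03% were lower, which also stands beside the B cell markers below. The median of the list was 0.28, compared to -0.03 over all genes tested. Of the 12 B cell markers, *CD22* (1.47) and *VPREB3* (1.34) were higher, 3 were lower, *RAG1* (-1.94) and *VPREB1* (-0.89) the furthest, and the median was -0.19. The call of *MSR1* was lost in 7 of 9 alternatives, with DESeq2 at a log2 fold change of -0.59, and that of *VPREB3* when any of 3 libraries was left out. Markers of other cell types moved as well. *LAMP3* had 7 and 4 counts in control and 45 and 36 after CTCF depletion, and was higher (2.88). All 3 tested dendritic cell markers lay above 0. *FCER1A* of the same list, too low to be tested, went the other way. It had 9 and 21 counts in control and 5 and 4 after CTCF depletion. The ratio was 0.307 (exact interval 0.128 to 0.662, counting error). *COL1A2*, a fibroblast marker too low to be tested, had 1 and 0 counts in control and 8 and 5 after CTCF depletion. The ratio was 13.3 (exact interval 2.0 to 565, counting error). In contrast, all 4 tested fibroblast and endothelial markers lay below 0. The endothelial marker *VWF* was lower (-1.97), a call lost with DESeq2 (adjusted p = 0.0332) and without the first control or the second CTCF-depleted library. *MPO* of neutrophil precursors was lower too (-0.70), a call lost with DESeq2 (adjusted p = 0.168) and whenever any 1 of the 4 libraries was left out. Of the 5 tested genes of its list, 3 lay above 0 and 2 below, with a median of 0.25. Those above 0 were *ELANE* (0.44), *CAMP* (0.26) and *PRTN3* (0.25), none of which passed. The lower *IL10RA* and *IL7R* of CTCF-depleted cells thus stood beside markers of several cell types that changed in both directions, and the part of cell composition in these differences was not tested.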

How the data were processed

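The 6 libraries were made from total RNA after ribosomal RNA depletion. Per the methods of the study and the submitters' processing notes, the authors aligned reads to hg38 with STAR 2.6.1d and made the deposited raw counts per gene with featureCounts 2.0.6. The annotation release and the strand setting are not given in the sources used here.

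The deposited counts were analysed with edgeR 4.0.16 in R 4.3.3 (filterByExpr, TMM, 1 quasi-likelihood model of all 6 libraries with group as its only term), and p-values were adjusted by the Benjamini-Hochberg method over all 14758 genes tested. Each standard error is the absolute log2 fold change divided by the square root of F. Groups of 1 to 10 summed counts were also compared by ratios with exact 95% intervals, and groups at 0 by a floor of 3 counts over both libraries. Reads without molecular identifiers are not independent molecules, so that these cover counting error only. Replicates differed by more than sampling noise (chi-square per degree of freedom 2.8, 1.95 and 1.75). Exon lengths and positions came from GENCODE release 44 (hg38). The fit was tested on simulated data. Python 3.11.15 with pandas 2.3.3, scipy 1.17.1 and matplotlib 3.10.9 made summaries and plots.

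The receptors, gene lists and tests were chosen with earlier results of these data known. Named genes are the 10 receptors, partner chains and ligands, at most 4 called genes with the largest change per other list and comparison, defining markers at 0, nearest profiles, *CTCF* and *CEBPA*, and others chosen after their values were seen. Some genes of the lists are not reported here. Alternatives were DESeq2 1.42.0, RLE scaling, other filters on low counts, only the 4 libraries compared, replicate blocks, other thresholds and leaving out each library.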

Additional observations from a re-analysis of the deposited data

How the results depend on the processing

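Of 291 log2 fold changes of the receptors recomputed under alternatives, 281 kept their direction and their side of the thresholds. *CSF2RB* in 96 h control against 0 h passed the thresholds in 5 alternatives, at -0.60 (RLE scaling) to -0.65 (without the second 0 h library), and *IL3RA* after CTCF depletion in 1 (0.61, without the first CTCF-depleted library). The sign turned for *FLT3* in 96 h control against 0 h in 3 fits that gave 0.00, among them that with the replicate block, and for *IL6R* after CTCF depletion without the second control library (0.01; the range over the libraries left out ran from -0.06). Requiring 10 counts in every library leaves 7 receptors to test and gave 5 called receptors in place of 8 in 96 h control against 0 h, and 1 in place of 2 after CTCF depletion. After depletion, an adjusted p below 0.05 without a fold threshold called 7 receptors, and a log2 fold change above 1 called 1. With each library left out in turn, 8 to 9 receptors were called in 96 h control against 0 h, 2 to 3 after CTCF depletion and 9 in CTCF-depleted cells against 0 h. In these fits the group with 1 library left is assumed to vary like the others.

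The differences between replicates correlated across genes by -0.0194, 0.0109 and -0.0294 between the 3 pairs of groups. No large effect shared by libraries of the same replicate number was thus seen. Whether equal numbers share a culture or a day is not stated in the labels, and these correlations cannot settle it. With the replicate block, 8, 2 and 9 receptors were called in the 3 comparisons, as without it. Depth limits *CSF2RA*, *IL10RA* and *CSF3R* at 0 h, with at most 8 counts in a library, and the levels per kilobase rest on annotated lengths.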
